A study of Mus musculus with 12 samples.

Results

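Mitotic and DNA replication genes are a set of 45 protein-coding genes that cells switch on to copy their DNA and to divide. The members were chosen by name, by matching a fixed list of gene symbols to the rows of the count table, and 45 of 45 were found among the 39756 genes of that table. Ischemia/reperfusion (I/R) was produced in male C57BL/6 mice (labelled C57BL/6J) of 9 to 10 weeks by blocking the left middle cerebral artery with a filament for 45 min and then withdrawing it (transient occlusion, tMCAO). The Sham group (4 mice) had sham surgery and saline, the Vehicle group (4 mice) had I/R and saline, and the LJP group (4 mice) had I/R and Laminaria japonica polysaccharide, an extract of a brown seaweed that the study's methods give by mouth for 14 days before surgery and afterwards. RNA of the ischemic hemisphere, a bulk tissue of many cell types, was sequenced from each mouse, and the labels give no dose for these mice (the study took the middle of its doses into the experiments that followed dose finding) and no time after surgery.

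Before S phase, the MCM helicase is loaded at replication origins and E2F transcription factors raise the enzymes that make deoxynucleotides. During S phase the clamp PCNA holds the polymerases on the template. Cyclin B with CDK1 then drives entry into mitosis, FOXM1 raises many mitotic transcripts, the spindle checkpoint holds chromosome separation until every kinetochore is attached, and CDC20 with the ubiquitin-conjugating enzyme UBE2C ends mitosis by marking cyclin B for destruction. Most neurons of the adult brain have left the cell cycle, and microglia, endothelial cells, glial precursors and invading leukocytes are among the cells known to divide after stroke.

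Total counts were 17960353 to 22216315 per mouse, and all 45 members passed the filter on low counts that left 17558 genes for testing. A limit of 3 counts, the most that a count of 0 allows, lay between 0.129 and 0.173 CPM, the unit in which the counts of a gene are scaled to the total of its library, and it covers counting error only. The neuron markers (10 genes, 4450 to 8180 CPM summed per mouse) and the astrocyte markers (10 genes, 4360 to 6610 CPM) were the most abundant marker lists, as the label brain implies. Vehicle mice 1 and 2 stood apart from Vehicle mice 3 and 4: their monocyte and macrophage markers summed to 291 and 394 CPM against 50.9 and 84.2 CPM, and their endothelial markers to 788 and 1710 CPM against 356 and 429 CPM. The counts of members called are given with and without both mice.

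Promoter sequence is shown for 7 members, because the promoters of such genes carry short motifs that are known to time their transcription: E2F sites in replication genes, and the cell cycle homology region (CHR), often beside a CCAAT box, in mitotic genes. Mcm6 and Rrm2 stand for replication, Cdk1 had the largest fold change of the members, Plk1, Ube2c and Cdc20 stand for mitosis, and Ccne1 was the member that did not pass the test after I/R. Each line gives the 250 bases before the RefSeq start on GRCm38.p6, written 5′ to 3′ along the gene, and capitals mark the matches to any of the motifs. The windows are chr1:128359706-128359955 (minus strand) for Mcm6, chr12:24708004-24708253 (plus) for Rrm2, chr10:69352913-69353162 (minus) for Cdk1, chr7:122159185-122159434 (plus) for Plk1, chr2:164769679-164769928 (plus) for Ube2c, chr4:118437344-118437593 (minus) for Cdc20 and chr7:38107491-38107740 (minus) for Ccne1.
Mcm6: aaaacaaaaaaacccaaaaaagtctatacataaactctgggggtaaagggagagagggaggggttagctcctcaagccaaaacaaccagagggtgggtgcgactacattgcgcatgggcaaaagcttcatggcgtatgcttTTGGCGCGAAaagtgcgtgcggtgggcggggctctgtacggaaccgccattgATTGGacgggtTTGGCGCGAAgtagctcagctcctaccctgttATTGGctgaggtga
Rrm2: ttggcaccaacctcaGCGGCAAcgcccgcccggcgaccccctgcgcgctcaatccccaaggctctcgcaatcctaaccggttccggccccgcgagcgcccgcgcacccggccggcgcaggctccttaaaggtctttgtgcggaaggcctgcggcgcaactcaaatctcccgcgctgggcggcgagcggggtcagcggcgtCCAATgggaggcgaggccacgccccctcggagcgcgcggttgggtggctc
Cdk1: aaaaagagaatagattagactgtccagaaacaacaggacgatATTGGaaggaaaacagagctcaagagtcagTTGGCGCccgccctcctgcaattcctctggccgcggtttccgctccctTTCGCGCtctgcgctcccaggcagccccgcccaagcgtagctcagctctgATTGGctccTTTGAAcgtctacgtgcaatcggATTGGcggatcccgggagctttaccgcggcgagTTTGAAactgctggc
Plk1: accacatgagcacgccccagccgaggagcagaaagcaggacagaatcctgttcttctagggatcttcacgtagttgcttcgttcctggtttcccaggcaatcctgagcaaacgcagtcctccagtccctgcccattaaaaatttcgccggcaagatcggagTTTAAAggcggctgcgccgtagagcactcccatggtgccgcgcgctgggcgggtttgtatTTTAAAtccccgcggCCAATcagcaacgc
Ube2c: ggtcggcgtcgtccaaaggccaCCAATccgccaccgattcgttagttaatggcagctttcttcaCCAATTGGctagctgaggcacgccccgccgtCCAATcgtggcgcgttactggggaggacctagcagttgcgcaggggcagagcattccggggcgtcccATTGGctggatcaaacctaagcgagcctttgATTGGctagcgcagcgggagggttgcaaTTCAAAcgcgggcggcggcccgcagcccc
Cdc20: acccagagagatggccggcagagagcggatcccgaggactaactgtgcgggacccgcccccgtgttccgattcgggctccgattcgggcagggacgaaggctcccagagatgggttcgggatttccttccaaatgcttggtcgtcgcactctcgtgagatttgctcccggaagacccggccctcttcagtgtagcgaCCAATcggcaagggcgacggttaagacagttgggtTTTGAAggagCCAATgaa
Ccne1: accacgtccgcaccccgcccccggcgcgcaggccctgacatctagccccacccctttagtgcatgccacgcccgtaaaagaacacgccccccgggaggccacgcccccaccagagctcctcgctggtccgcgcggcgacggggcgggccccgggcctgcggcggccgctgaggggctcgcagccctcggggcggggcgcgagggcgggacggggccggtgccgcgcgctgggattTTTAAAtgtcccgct
The E2F search took 4 forms of the site on either strand. The first of these was TTCCCGC, searched as written and as its reverse complement. Another form searched in the same way was TTCGCGC, again on both strands. The search also took TTGCCGC as a separate form of the site. The remaining form in the search was TTGGCGC, counted in the same windows. For the CHR, the search took TTTGAA as the first form. The other form of the CHR that was searched was TTTAAA, which is its own reverse complement. The search for the CCAAT box took the letters of its name, and all searches covered both strands and allowed overlaps. The Mcm6 window held E2F and CCAAT letters and no CHR letters. The Plk1, Ube2c and Cdc20 windows held CHR and CCAAT letters and no E2F letters, and the Cdk1 window held all 3 kinds. In Ccne1 a lone TTTAAA lay 15 bases before the start.

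RefSeq promoters were matched for 38 of the 45 members (42 promoters, since some genes have several starts), and Aurkb, Ccna2, Foxm1, Kif20a, Mcm4, Pbk and Tpx2 had no entry. E2F letters were in 7 of 12 promoters of replication members and 5 of 30 promoters of the other members, against 7.89% of 32851 promoters in all. CHR letters were in 3 of 12 replication promoters and 15 of 30 others, against 25.2% of all promoters. CCAAT letters were in 10 of 12 and 23 of 30, against 33.8% of all. CHR and CCAAT letters occurred together in 2 of 12 replication promoters and 13 of 30 others, against 8.78% of all promoters. These matches are a description of letters and say nothing of which factor is bound.

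The first comparison, Vehicle against Sham, asked what I/R did to the members. In Vehicle mice 44 of 45 members were higher (adjusted p below 0.05, edgeR's quasi-likelihood test) and 0 were lower, that is 97.8% of the list beside 22.7% of the 17558 genes tested that were higher and 17.3% that were lower. The median log2 fold change of the members was 2.37, while that of all genes tested was 0.00, and the members ranged from -0.16 for Ccne1 to 4.67 for Cdk1. The 4 Vehicle mice lay above the 4 Sham mice without overlap for 38 members, a separation that 20.7% of all genes tested showed. With the cut-offs that the study's methods state (unadjusted p below 0.01 and a log2 change of more than 0.58 either way), 42 members were higher beside 15.3% of all genes. In a bulk hemisphere, a change in the number of dividing cells and a change in the RNA per dividing cell cannot be told apart.

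**Figure D1:**
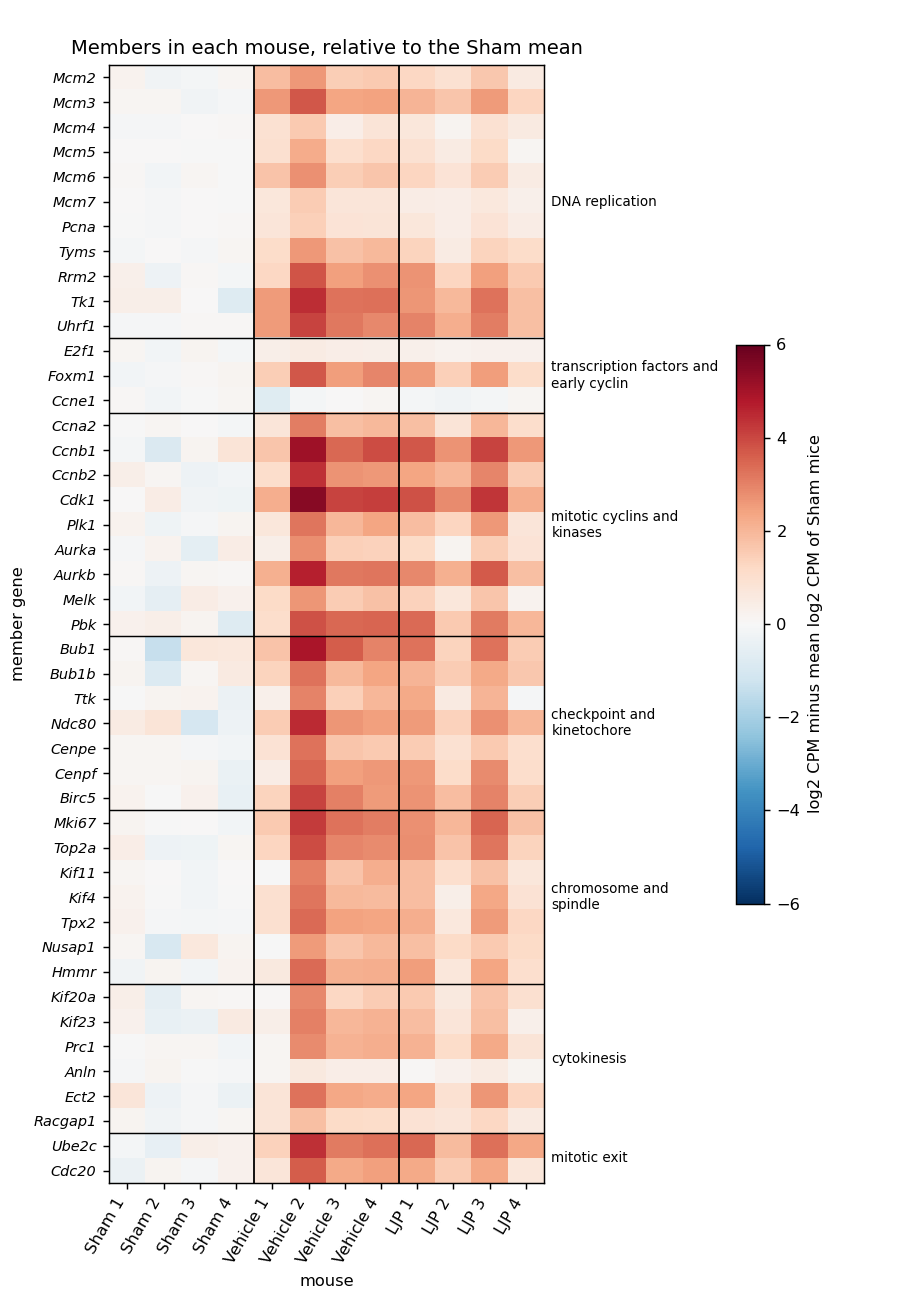
Rows are the 45 members grouped by role, columns are the 12 mice, and colour is log2 CPM minus the mean of the 4 Sham mice. The Sham columns are pale, the column of Vehicle mouse 2 is the darkest, Vehicle mouse 1 is pale in the mitotic rows, and LJP mice 1 and 3 are darker than LJP mice 2 and 4.

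All 11 replication members rose, with a median log2 fold change of 2.01. Mcm6, a subunit of the MCM2-7 helicase, measured 6.29, 5.23, 6.41 and 5.80 CPM in Sham mice 1 to 4 and 19.7, 40.2, 16.9 and 19.1 CPM in Vehicle mice 1 to 4. Vehicle mouse 2 was far above the other 3, and all 4 lay above every Sham mouse. The log2 fold change of Mcm6 was 2.02 (SE 0.29, edgeR adjusted p = 0.000442). Uhrf1, which recognises hemimethylated DNA behind the fork, measured 1.80 to 2.03 CPM in Sham and 12.0, 33.8, 18.1 and 14.8 CPM in Vehicle mice 1 to 4. It had the smallest p of the replication members, with a log2 fold change of 3.35 (SE 0.37, edgeR adjusted p = 0.000124). Pcna, the sliding clamp, was already at 30.0 to 33.2 CPM in Sham, reached 52.2, 85.4, 54.3 and 53.6 CPM in Vehicle, and rose by the smaller log2 fold change of 0.97 (SE 0.15, edgeR adjusted p = 0.000761). The groups did not overlap for any of these 3 genes. Of the helicase subunits, Mcm3 rose most (log2 fold change 2.94) and Mcm7 least (0.96). Among the enzymes of deoxynucleotide supply, Tk1 (thymidine kinase) rose by 3.64, Rrm2 (ribonucleotide reductase) by 2.86 and Tyms (thymidylate synthase) by 2.03 on the log2 scale.

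Of the transcription factors and the early cyclin, 2 of 3 rose. Foxm1 measured 1.67 to 2.07 CPM in Sham and 5.36, 25.9, 11.1 and 14.9 CPM in Vehicle mice 1 to 4, a log2 fold change of 2.94 (SE 0.47, edgeR adjusted p = 0.000802). E2f1 moved from 17.1 to 21.3 CPM in Sham to 23.8 to 26.7 CPM in Vehicle, without overlap, and its log2 fold change was only 0.39 (SE 0.09, edgeR adjusted p = 0.0053). Ccne1 (cyclin E), the partner of CDK2 at the start of S phase, measured 14.9, 12.9, 14.03 and 15.4 CPM in Sham and 8.49, 13.1, 14.6 and 15.3 CPM in Vehicle. The groups overlapped and the log2 fold change of -0.16 (SE 0.16) did not pass the test (edgeR adjusted p = 0.454). Per length, Ccne1 was among the more abundant members in Sham, at 7.32 CPM per kilobase of gene length (RPKM) beside 0.427 RPKM for Foxm1 and 0.0787 RPKM for Cdk1.

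The 9 mitotic cyclins and kinases all rose, with the highest median of the larger role groups, 3.29. Cdk1, the kinase that starts mitosis, had 6, 9, 5 and 5 reads in Sham mice 1 to 4 and 41, 440, 133 and 140 reads in Vehicle mice 1 to 4. That is 0.259 to 0.490 CPM against 1.86 to 18.9 CPM, a log2 fold change of 4.67 (SE 0.74, edgeR adjusted p = 0.000749). Its cyclins followed, with Ccnb1 at 4.13, Ccnb2 at 3.29 and Ccna2 at 2.15 on the log2 scale. Aurkb, the kinase of the chromosomal passenger complex, rose by 3.83, Pbk by 3.38, Plk1 by 2.37 and Aurka by 1.75. Melk, a kinase of dividing cells, measured 0.708 to 1.48 CPM in Sham and 2.45, 7.13, 3.23 and 3.88 CPM in Vehicle, a log2 fold change of 1.92 (SE 0.41, edgeR adjusted p = 0.00366). Aurka was the member of this role group whose Sham and Vehicle mice overlapped.

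All 7 checkpoint and kinetochore members rose (median 2.65). Bub1b, a kinase-like protein of the spindle checkpoint, measured 2.19, 1.03, 2.14 and 2.85 CPM in Sham and 5.08, 19.3, 7.70 and 10.5 CPM in Vehicle, a log2 fold change of 2.37 (SE 0.40, edgeR adjusted p = 0.00113). Cenpe, the motor that carries chromosomes to the spindle equator, went from 1.56 to 1.96 CPM in Sham to 3.31, 18.1, 5.87 and 5.55 CPM in Vehicle (log2 fold change 2.21, SE 0.45, edgeR adjusted p = 0.00281). Bub1, with 0 to 6 reads per Sham mouse and 17 to 183 per Vehicle mouse, had the largest fitted change of the group (log2 fold change 4.04, SE 0.86). The other members were Ndc80 (3.47), Birc5 (survivin, 3.19), Cenpf (2.65) and Ttk (2.19). Ttk was lost (adjusted p 0.05 or above) when Sham mouse 1, Sham mouse 4 or Vehicle mouse 2 was left out.

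Chromosome and spindle members rose in 7 of 7 cases, with a median of 2.51. Mki67, the Ki-67 antigen that coats mitotic chromosomes and is the usual histological mark of dividing cells, measured 4.56, 4.03, 4.17 and 3.68 CPM in Sham and 12.4, 77.6, 40.1 and 34.6 CPM in Vehicle mice 1 to 4. Every Vehicle mouse was above every Sham mouse, and Vehicle mouse 1 was closer to the Sham mice than to the other Vehicle mice. The log2 fold change was 3.32 (SE 0.52, edgeR adjusted p = 0.000731). Top2a, the topoisomerase that untangles sister chromatids, measured 2.34 to 3.86 CPM in Sham and 7.22, 44.4, 22.8 and 21.3 CPM in Vehicle (log2 fold change 3.03, SE 0.54, edgeR adjusted p = 0.00143). Kif4, a chromosome-bound motor, went from 1.15 to 1.499 CPM to 2.63, 12.9, 5.22 and 5.12 CPM (log2 fold change 2.33, SE 0.51, edgeR adjusted p = 0.00437). The log2 fold changes of the other spindle members were 2.56 for Tpx2, 2.51 for Hmmr, 2.12 for Kif11 and 1.75 for Nusap1. Sham and Vehicle mice overlapped for Kif11 and Nusap1, with Vehicle mouse 1 within the Sham range.

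The 6 cytokinesis members rose with the lowest median apart from the transcription factors, 1.94, and the 2 mitotic exit members with a median of 3.11. Racgap1, a subunit of centralspindlin at the spindle midzone, measured 10.9 to 14.4 CPM in Sham and 21.7, 44.3, 28.4 and 27.4 CPM in Vehicle (log2 fold change 1.24, SE 0.21, edgeR adjusted p = 0.00108). Anln (anillin, a scaffold of the contractile ring) had the smallest called change, 0.38 (SE 0.12, edgeR adjusted p = 0.0207), its groups overlapped, and the call was lost without Sham mouse 1, 3 or 4 or Vehicle mouse 2. Ect2 rose by 2.502, Kif23 by 2.16, Prc1 by 2.11 and Kif20a by 1.77 on the log2 scale. Sham and Vehicle mice overlapped for Kif23 and Kif20a too, with Vehicle mouse 1 within the Sham range. Ube2c measured 0.327 to 0.658 CPM in Sham and 1.497, 12.4, 5.22 and 5.82 CPM in Vehicle (log2 fold change 3.57, SE 0.61, edgeR adjusted p = 0.00115). Cdc20, which activates the anaphase-promoting complex, went from 1.61 to 2.49 CPM to 3.45, 27.1, 10.5 and 11.75 CPM (log2 fold change 2.65, SE 0.54, edgeR adjusted p = 0.00278).

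**Figure D2:**
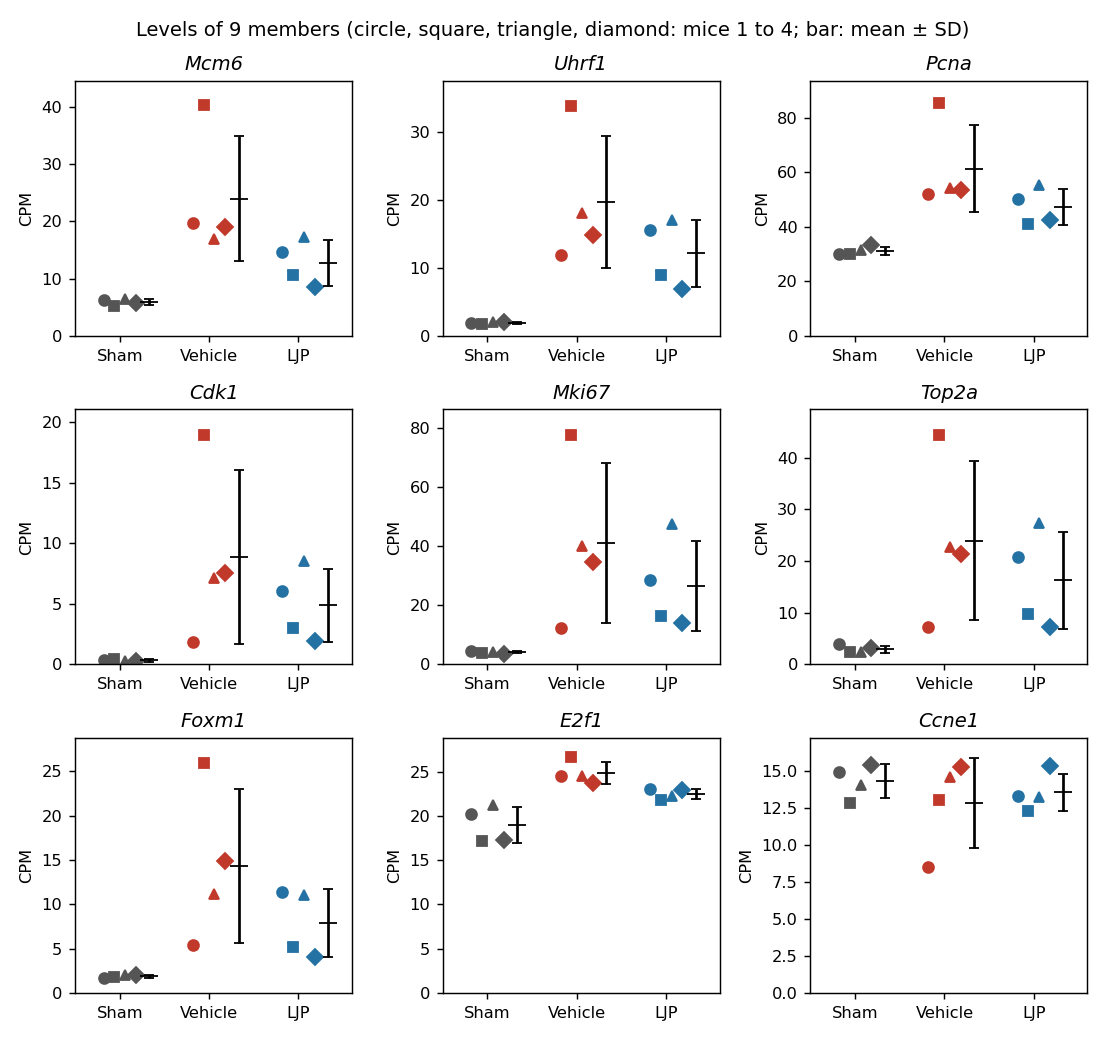
Each panel gives the CPM of 1 member in every mouse (circle, square, triangle and diamond for mice 1 to 4) with the group mean and SD as a bar beside the points. In Cdk1, Mki67 and Top2a the circle of Vehicle mouse 1 sits below all 4 LJP points, whereas E2f1 and Ccne1 change little between groups.

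Genes that share a position can share reads, and 15 members overlap another gene of the table. Kif20a lies on the opposite strand to Cdc23 over 4930 bases, and Cdc23 drew 10215 reads in all against 1884 for Kif20a. Prc1 overlaps Rccd1 over 21669 bases (1929 and 1977 reads), and E2f1 overlaps Necab3 over 7 bases. The counting was not stated to use strand, so the reads of such pairs cannot be told apart and these members are less certain. The pseudogenes Ccnb1-ps, Kif4-ps and Tyms-ps drew at most 1 read in all.

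The members did not move equally in the 4 Vehicle mice. Averaged over the 45 members, log2 CPM was 1.03, 3.16, 2.06 and 2.14 above the Sham mean in Vehicle mice 1 to 4 (mean 2.10, SD 0.873, n = 4), while Sham mice lay between -0.12 and 0.10. Vehicle mouse 2 was the highest of all 12 mice in 44 of 45 members, and Vehicle mouse 1 was the lowest of the Vehicle mice in 40. The shares of all genes with these orders of mice, and with those given below, were not computed. The orders can therefore not be called particular to the members. In Vehicle mouse 1 the 11 replication members averaged 1.54 and the other 34 members 0.86 above Sham. In Vehicle mice 2, 3 and 4 the order was the other way, with replication 0.49, 0.46 and 0.42 below the other members. Vehicle mouse 1 was below both mice 3 and 4 in 33 of the 34 members outside replication, and above both in 4 of 11 replication members, while it was the lowest Vehicle mouse in the other 7. For example, Mcm6 in Vehicle mouse 1 (19.7 CPM) was level with mice 3 and 4 (16.9 and 19.1 CPM), whereas Rrm2, also of replication, was at 5.76 CPM against 13.6 and 16.8 CPM, and Cdk1 at 1.86 CPM against 7.16 and 7.54 CPM.

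**Figure D3:**
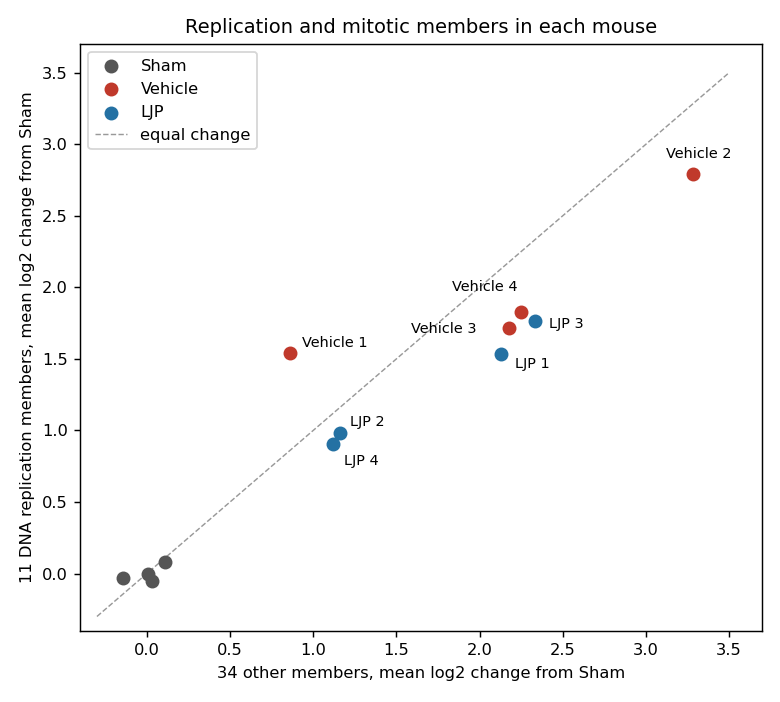
Each point is a mouse, the x axis is the mean log2 change from Sham of the 34 other members, the y axis that of the 11 replication members, and the dashed line marks equal change. Vehicle mouse 1 lies above the line (1.54 against 0.86), while the other 3 Vehicle mice and the 4 LJP mice lie below it.

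Cell type markers moved with the groups too. From Sham to Vehicle, the microglia markers (10 genes) went from 320 to 323 CPM summed per mouse to 432 to 872 CPM, with 6 of 10 higher. The monocyte and macrophage markers went from 25.9 to 30.7 CPM to 50.9 to 394 CPM (9 of 9 tested higher), and the endothelial markers from 256 to 279 CPM to 356 to 1710 CPM (8 of 10 higher). Neutrophil markers summed to 5.42 to 6.84 CPM in Sham and 18.3 to 215 CPM in Vehicle. Only 1 of 12, Csf3r, passed the filter, and Elane was at 0 in all mice. The T, B and NK cell markers summed to 19.5 to 25.99 CPM in Sham and 4.21 to 6.19 CPM in Vehicle, a fall that lay in Cd4 (367 to 464 reads per Sham mouse and 43 to 104 per Vehicle mouse), the 1 marker of 12 that passed the filter. Cd3e, for comparison, had 0, 0, 6 and 0 reads in Sham and 6, 13, 0 and 5 in Vehicle, and 6 markers of the list (Cd3d, Cd3g, Cd2, Ms4a1, Ncr1 and Klrb1c) never exceeded 3 reads. Astrocyte markers went from 4490 to 4890 CPM to 4360 to 6610 CPM, with 3 of 10 higher and 1 lower, and Gfap among them went from 1860 to 2909 reads to 32080 to 66402. Other lists in Sham and Vehicle were pericytes and smooth muscle (231 to 254 and 261 to 469 CPM, 3 of 9 higher), oligodendrocyte precursors (738 to 775 and 449 to 838 CPM, 1 of 10 higher and 1 lower), and neural stem cells and neuroblasts (337 to 370 and 456 to 647 CPM, 5 of 12 higher). Neuron markers fell in 4 of 10 cases, from 7390 to 8180 CPM to 4450 to 7050 CPM. The part of these cell types in the members' change was not tested. With Vehicle mice 1 and 2 left out together, a setting chosen after the data were seen, 44 members were still higher in Vehicle than in Sham, beside 29.7% of all genes called in either direction, and their median was 2.15.

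**Figure D4:**
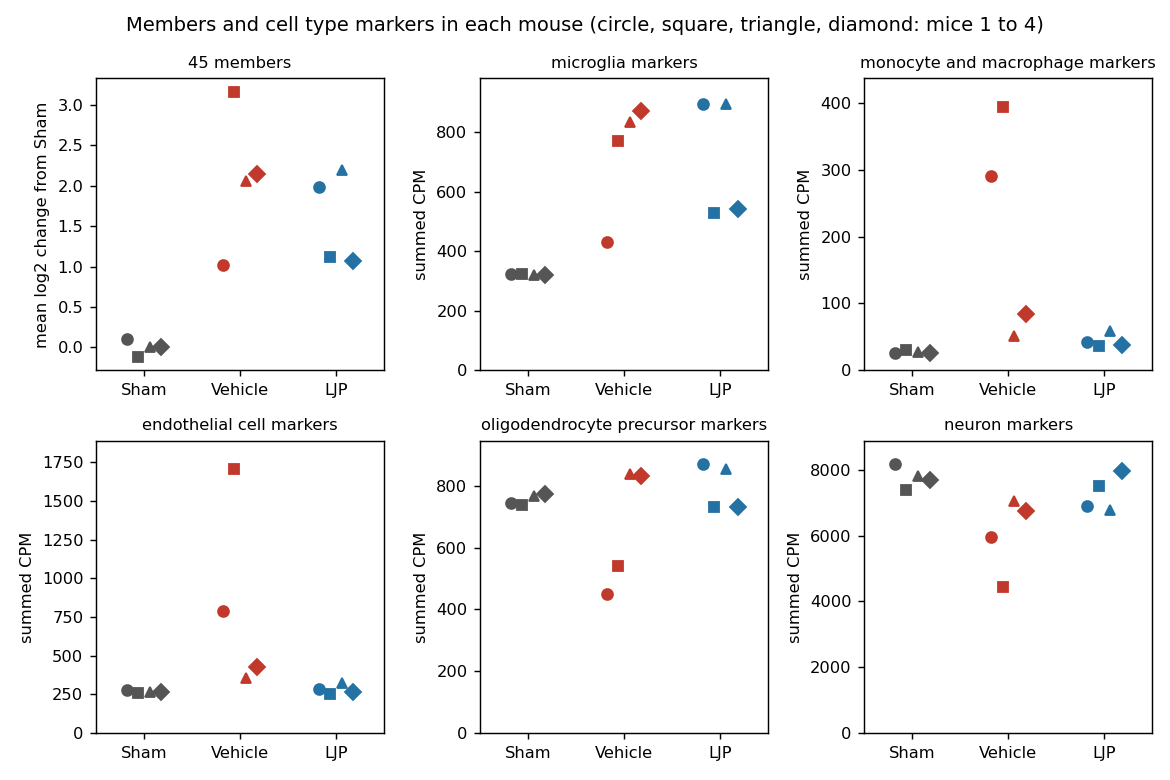
The first panel gives the mean log2 change of the 45 members from Sham in each mouse and the others the summed CPM of marker lists (circle, square, triangle and diamond for mice 1 to 4). Microglia markers are near 890 CPM in LJP mice 1 and 3 and between 529 and 542 CPM in LJP mice 2 and 4, the same split as in the members, and macrophage and endothelial markers are highest in Vehicle mice 1 and 2.

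The second comparison, LJP against Vehicle, asked what the polysaccharide did after I/R, and it uses the same Vehicle mice. No member passed the test: 0 of 45 had an adjusted p below 0.05 in edgeR's quasi-likelihood test, beside 4 genes (0.0228%) of all genes tested. In direction, 44 of 45 members were lower in LJP, with a median log2 fold change of -0.67, where 50.2% of all genes were lower and their median was 0.00. At an unadjusted p below 0.05 there were 8 members, all lower, which is 17.8% of the list and near the 17.4% of all genes that were lower at that level. They were Mcm2, Mcm3, Mcm5, Mcm6, Mcm7, Pcna, Tyms and Tk1, all of them replication members (8 of 11) with all mice in the fit, and Tk1 had the lowest log2 fold change of the 8, -1.02 (SE 0.41). The study's thresholds took 2 members, Mcm2 and Mcm6, beside 5.89% of all genes that were lower.

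Mcm6 came nearest to the threshold. It measured 14.6, 10.6, 17.2 and 8.47 CPM in LJP mice 1 to 4 against 19.7, 40.2, 16.9 and 19.1 CPM in Vehicle, so that LJP mouse 3 overlapped the Vehicle range. Its log2 fold change was -0.91 (SE 0.28, edgeR adjusted p = 0.0741). Mcm2 followed with -0.83 (SE 0.26, edgeR adjusted p = 0.0792) and Mcm3 with -0.95 (SE 0.32, edgeR adjusted p = 0.0903). Mcm7 and E2f1 were the 2 members whose LJP mice all lay below every Vehicle mouse, a separation shown by 5.91% of all genes. Mcm7 measured 20.5, 19.6, 23.3 and 18.3 CPM in LJP and 24.0 to 42.8 CPM in Vehicle (log2 fold change -0.50, SE 0.17, edgeR adjusted p = 0.0928), and E2f1 measured 21.8 to 23.0 CPM against 23.8 to 26.7 CPM (-0.14, SE 0.09, edgeR adjusted p = 0.283).

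The mitotic members were spread widely in both groups. Mki67 measured 28.4, 16.5, 47.5 and 13.9 CPM in LJP mice 1 to 4, and all 4 were above Vehicle mouse 1 (12.4 CPM) and below Vehicle mouse 2 (77.6 CPM). Its log2 fold change was -0.63 (SE 0.46, edgeR adjusted p = 0.358). Cdk1 in LJP was 6.04, 3.02, 8.54 and 1.90 CPM (-0.86, SE 0.56, edgeR adjusted p = 0.307), and Top2a was 20.7, 9.71, 27.4 and 7.30 CPM (-0.56, SE 0.48, edgeR adjusted p = 0.441). For these genes too every LJP mouse was above Vehicle mouse 1. Foxm1 in LJP was 11.4, 5.16, 11.04 and 4.07 CPM (-0.85, SE 0.42, edgeR adjusted p = 0.189). Cenpe (-0.87, SE 0.42), Melk (-0.82, SE 0.38), Kif4 (-0.72, SE 0.47), Cdc20 (-0.78, SE 0.49), Bub1b (-0.52, SE 0.37), Ube2c (-0.52, SE 0.50) and Racgap1 (-0.39, SE 0.20) had the same sign, with edgeR adjusted p between 0.174 and 0.495. Ccne1 was the exception in direction, at 0.08 (SE 0.16). These p-values do not show that LJP and Vehicle were alike, since the standard errors are large beside the differences.

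Single mice moved this comparison. Without Vehicle mouse 1, 45 of 45 members were lower and 31 reached an unadjusted p below 0.05, of which 10 were replication members and 21 were not (beside 15.4% of all genes lower at that level in that fit), although 0 passed the adjusted test. The count at that level was 5 without Vehicle mouse 2, LJP mouse 2 or LJP mouse 4, all 5 of replication in each, beside 12%, 13.4% and 13.1% of all genes lower in those fits, and 16 without LJP mouse 3, beside 17.2%. Without Vehicle mouse 3, Mcm2, Mcm3, Mcm6 and Mcm7 passed the test (beside 21.6% of all genes called in that fit), and without Vehicle mouse 4, Mcm2 and Mcm6 did (11.7%). Without Vehicle mouse 2, 36 of 45 members were lower, their median was -0.12 and Ube2c turned to 0.07, and with Vehicle mice 3 and 4 only, 45 of 45 members were lower with a median of -0.41 and 0 calls. DESeq2 called 4 members, Mcm2, Mcm3, Mcm6 and Tyms, beside 13.4% of all genes. Between LJP and Vehicle the microglia markers had a median log2 fold change of 0.03 and the macrophage and endothelial markers of -1.66 and -1.45, with 0 called in each list. The 1 neutrophil marker tested, Csf3r, was at -1.07 and Cd4 at 1.15, neither called. Their part in the members' values was not tested.

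Within the LJP group, mice 1 and 3 were above mice 2 and 4 in 42 of 45 members, including all 11 replication members. This grouping of mice was picked after the values were seen. The share of all genes with the same order was not computed, so the split cannot be called particular to the members. The mean over members was 1.98, 1.11, 2.19 and 1.07 above Sham in LJP mice 1 to 4 (mean 1.59, SD 0.582, n = 4). The same mice split in the microglia markers, which summed to 896, 529, 894 and 542 CPM. Neutrophil markers were 22.4 and 20.2 CPM in mice 1 and 3 and 10.2 and 11.6 CPM in mice 2 and 4. Most of that sum was Csf3r (474, 192, 354 and 186 reads in LJP mice 1 to 4), while S100a8 had 4, 0, 4 and 3. The oligodendrocyte precursor markers were 870 and 853 against 730 and 733 CPM. Mice 1 and 3 were also the higher pair in astrocyte (6481 and 5958 against 5558 and 5325 CPM), monocyte and macrophage (42.0 and 58.9 against 36.5 and 38.2 CPM), endothelial (284 and 322 against 251 and 265 CPM) and pericyte markers (252 and 285 against 232 and 225 CPM). In neuron markers they were the lower pair, at 6912 and 6772 against 7514 and 7963 CPM. The labels give no detail that separates these mice, and the part of the markers in the split was not tested.

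The third comparison, LJP against Sham, asked what was left of the I/R response in treated mice, and it shares its mice with the other comparisons. In LJP 20 of 45 members were higher in edgeR's quasi-likelihood test and 0 were lower, beside 3.85% of all genes that were higher and 0.9% that were lower. The median log2 fold change was 1.82, and every LJP mouse lay above every Sham mouse in 39 members, a separation shown by 12.9% of all genes. The 20 were Mcm2, Mcm3, Mcm6, Pcna, Rrm2, Tk1 and Uhrf1 of replication (7 of 11), Foxm1 (1 of 3), Ccnb1, Ccnb2, Cdk1, Aurkb and Pbk of the cyclins and kinases (5 of 9), Bub1b and Birc5 (2 of 7), Mki67, Top2a and Tpx2 (3 of 7), Racgap1 (1 of 6) and Ube2c (1 of 2). At an unadjusted p below 0.05, 43 members were higher, beside 11.6% of all genes.

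Mki67 was 13.9 to 47.5 CPM in LJP against 3.68 to 4.56 CPM in Sham, a log2 fold change of 2.69 (SE 0.51, edgeR adjusted p = 0.00958). Uhrf1 was 15.6, 8.998, 17.02 and 6.97 CPM in LJP mice 1 to 4, a log2 fold change of 2.66 (SE 0.37, edgeR adjusted p = 0.00174), the smallest p of the members in this comparison. Cdk1 had the largest fold change again, 3.81 (SE 0.74, edgeR adjusted p = 0.0105). Pcna was 50.1, 41.2, 55.5 and 42.7 CPM in LJP (0.60, SE 0.15, edgeR adjusted p = 0.0436). Members that did not pass included Cdc20 (1.87, SE 0.53, edgeR adjusted p = 0.0695), Cenpe (1.33, SE 0.45, edgeR adjusted p = 0.122), Kif4 (1.60, SE 0.52, edgeR adjusted p = 0.106), Melk (1.10, SE 0.41, edgeR adjusted p = 0.167) and E2f1 (0.25, SE 0.09, edgeR adjusted p = 0.153).

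The count of 20 moved with the mice in the fit. With only the 2 groups compared, where 16959 genes were tested, 41 members were higher, beside 23.8% of all genes called in either direction, and with Vehicle mice 3 and 4 only 42 were, beside 24.3%, so that calls over all genes rose with those of the members. Leaving out a single mouse gave 6, 5, 8 and 9 calls for Sham mice 1 to 4, 8 for LJP mouse 1 and 8 for LJP mouse 3, but 20 and 22 for LJP mice 2 and 4. The share of all genes called was 2.25%, 2.4%, 2.37% and 2.46% without Sham mice 1 to 4, 2.9% and 2.2% without LJP mice 1 and 3, and 3.85% and 4.14% without LJP mice 2 and 4. Mcm3, Tk1, Uhrf1, Cdk1 and Mki67 were called without Sham mouse 2, the setting with the fewest calls. DESeq2 called 34 members, beside 7.65% of all genes. Microglia markers were 529 to 896 CPM in LJP (6 of 10 higher than Sham), monocyte and macrophage markers 36.5 to 58.9 CPM and endothelial markers 251 to 322 CPM, with 0 called in the latter lists. Astrocyte markers were 5330 to 6480 CPM in LJP, above the 4490 to 4890 CPM of Sham without overlap (3 of 10 higher). The 1 neutrophil marker tested, Csf3r, was higher, while S100a8 and S100a9 had 0 to 7 reads per LJP mouse and 0 to 3 per Sham mouse. Of the neural stem cell and neuroblast markers, 1 of 12 was higher, and Cd4 was lower. The part of these lists in the members' change was not tested.

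**Figure D5:**
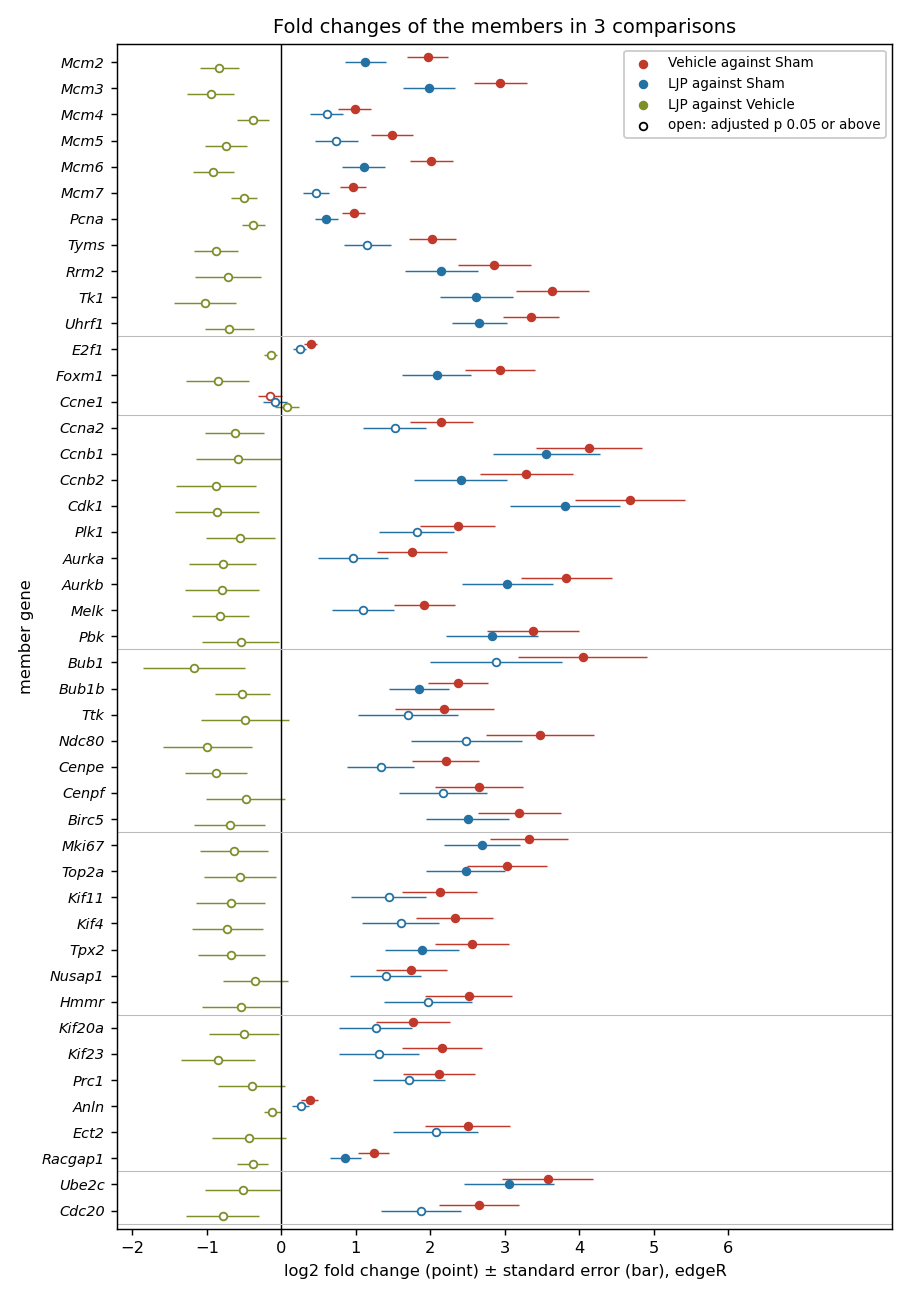
Points are log2 fold changes of the 45 members in the 3 comparisons with the standard error as a bar, and open points did not reach an adjusted p below 0.05 in edgeR. For Vehicle against Sham 44 points are filled, for LJP against Sham 20, and for LJP against Vehicle all 45 are open and 44 lie left of 0.

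A further 126 cell cycle genes that are not members, all tested, were grouped by their place in the cycle. In Vehicle 86 were higher (68.3%, beside 22.7% of all genes) and 3 lower than in Sham, with a median log2 fold change of 1.18. The counts of higher genes were 44 of 54 for mitotic entry, checkpoint and spindle, 24 of 38 for origin licensing and the fork, 7 of 9 for regulators before S phase (the D-type cyclins, Cdk2, Cdk4, Cdk6, Ccne2, Cdc25a and Myc), 6 of 10 for CDK inhibitors and pocket proteins, and 5 of 15 (33.3%, the share nearest to that of all genes) for E2F, DREAM and MuvB subunits. Chaf1b, a subunit of the histone chaperone CAF-1, rose by 3.90 (SE 0.50, edgeR adjusted p = 0.000245). Gins2, of the replicative helicase, rose by 3.16 (SE 0.40, edgeR adjusted p = 0.000209), and Ccnd1 (cyclin D1) by 1.44 (SE 0.17, edgeR adjusted p = 0.000159).

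The 3 genes that fell after I/R were Ccnd2, Cdc7 and Orc3. Ccnd2 (cyclin D2) measured 95.2 to 102 CPM in Sham and 55.0, 63.3, 73.2 and 76.0 CPM in Vehicle, opposite to Ccnd1 and Ccnd3, and its log2 fold change was -0.56 (SE 0.11, edgeR adjusted p = 0.00202). Cdc7, the kinase that fires origins, measured 7.89 to 9.40 CPM in Sham and 3.90, 4.51, 8.24 and 6.63 CPM in Vehicle mice 1 to 4, and its log2 fold change was -0.57 (SE 0.21, edgeR adjusted p = 0.0454). Vehicle mouse 3 lay within the Sham range, and with Vehicle mice 3 and 4 only the change of Cdc7 was -0.22 (SE 0.15, edgeR adjusted p = 0.324). Orc3 of the origin recognition complex fell by 0.23 (SE 0.07, edgeR adjusted p = 0.0231), and with Vehicle mice 3 and 4 only the values were -0.23 for Orc3 (edgeR adjusted p = 0.0311) and -0.40 for Ccnd2 (edgeR adjusted p = 0.00209). The neuron markers were lower in the same Vehicle mice, and their part in these values was not tested.

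Against Vehicle, LJP mice had 0 of the 126 genes called, a median of -0.42, and 28 lower (22.2%, beside 17.4% of all genes) and 1 higher at an unadjusted p below 0.05. Of the 9 regulators before S phase, 7 were lower at that level (Myc and Cdc25a among them), beside 12 of 38 for licensing and fork, 4 of 10 for inhibitors and 5 of 54 for mitosis. Cdkn1a (p21), an inhibitor induced by stress and p53, measured 137, 178, 45.5 and 42.6 CPM in Vehicle mice 1 to 4 and 31.6, 26.2, 45.1 and 42.8 CPM in LJP (-1.47, SE 0.40, edgeR adjusted p = 0.068). Myc measured 24.4, 33.4, 9.20 and 9.48 CPM in Vehicle and 7.63, 6.44, 9.68 and 6.08 CPM in LJP (-1.36, SE 0.36, edgeR adjusted p = 0.0678). In both genes Vehicle mice 1 and 2 carried the difference, and mice 3 and 4 lay within or near the LJP range. With Vehicle mice 3 and 4 only, the log2 fold change was -0.28 for Cdkn1a (SE 0.17, edgeR adjusted p = 0.482), -0.33 for Myc (SE 0.18, edgeR adjusted p = 0.443) and -0.29 for Cdk4 (edgeR adjusted p = 0.216). Cdk4 was lower by -0.50 (SE 0.13, edgeR adjusted p = 0.0678), while Ccnd2 (0.34, SE 0.11, edgeR adjusted p = 0.0789), Cdc7 (0.43) and Lin52 (0.24) had the smallest p among genes on the higher side. With Vehicle mice 3 and 4 only, Ccnd2 was at 0.18 (edgeR adjusted p = 0.373) and Cdc7 at 0.07 (edgeR adjusted p = 0.87). Against Sham, LJP mice had 21 genes higher (16.7%, beside 3.85% of all genes) and 0 lower, a count that moved when single mice were left out. Chaf1b was at 2.89, Gins2 at 2.26 and Ccnd1 at 1.04, and Orc3 (-0.17), Ccnd2 (-0.22) and Ccne2 (-0.25) did not pass.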

How the data were processed

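Poly(A) RNA of the ischemic hemisphere of 12 mice was sequenced as paired-end reads. The authors deposited raw counts per gene, 1 column per mouse. Per the submitters' processing notes, featureCounts and DESeq2 and the builds GRCm39 and mm10 were used, while the aligner, strand setting and handling of shared reads are not given in the sources used here. Positions of 45 of 45 members in the file equal those of RefSeq on GRCm38.p6, so coordinates are given on that build.

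The test was edgeR 4.0.16 in R 4.3.3 (filterByExpr, TMM factors, a quasi-likelihood fit with a coefficient per group over all 12 mice), and p-values were adjusted by Benjamini-Hochberg over 17558 genes. CPM and RPKM were computed from the counts with TMM factors and, for RPKM, the gene length of the file. Log2 CPM used a prior count of 2. Tested on simulated data for Vehicle against Sham, the fit recovered 125 of 200 genes changed 2-fold among 17558, with 6 false calls. Replicates were separate mice, the lowest chi-square per degree of freedom between mice of a group was 2.48, and the labels name no batch that separates the mice.

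The members and lists were chosen with earlier results of these data known, so no test of the list as a whole was made. Genes described in each mouse were the members with the smallest p of each role group in Vehicle against Sham and in LJP against Vehicle, plus Mki67, Top2a, Pcna, Cdk1, Foxm1 and E2f1. Other members are given by their changes, and Mcm7 and Ccne1 were added after their values were seen. Of the other cell cycle genes, those with the 3 smallest p on each side of every comparison were named, and Ccnd3 was added after its value was seen. Alternatives were DESeq2 1.42.0, RLE factors, no scaling beyond library size, all genes with a count, fits of 2 groups at a time, a replicate block, leaving out each mouse, the study's thresholds, an adjusted p below 0.1, and Vehicle mice 3 and 4 only, the last chosen after the data were seen. 1 marker list is not reported here. Plots were drawn with matplotlib 3.10.9.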

Additional observations from a re-analysis of the deposited data

Results flagged for a closer look

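Within each group of 4 mice, the gap from the highest or lowest mouse to its neighbour was divided by the range of the group. Of 135 such groups over the members, 8 passed Dixon's critical value, near the share of about 5% that chance gives. The cases below are therefore listed without being read as a trait of the members. Vehicle mouse 2 stood far above the other Vehicle mice in Mcm3 (0.876), Mcm5 (0.842), Mcm6 (0.882), Mcm7 (0.974) and Pcna (0.936), all of them replication members. In Pcna, for example, Vehicle mouse 2 measured 85.4 CPM beside 52.2 to 54.3 CPM in the other 3. The ratio is smaller where Vehicle mouse 1 was low, as in Mki67 (12.4, 77.6, 40.1 and 34.6 CPM in Vehicle mice 1 to 4). Most mitotic members were thus less open to this flag. In Sham the lone mice were mouse 2 in Anln (highest, 0.878), mouse 4 in Cenpf (lowest, 0.895) and mouse 1 in Tpx2 (highest, 0.882), and none was found in LJP. Endothelial (1710 CPM) and macrophage markers (394 CPM) were also highest in Vehicle mouse 2, and their part in its values was not tested.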

How the results depend on the processing

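For Vehicle against Sham, 42 to 44 members and 69 to 96 of the other cell cycle genes were called under every alternative run. The share of all genes called in either direction ran from 21.2% (no filter on low counts) to 49.9% (adjusted p below 0.1). The 15 members described in each mouse kept direction and call in each refit. Of these 15, the study's thresholds dropped E2f1. Many of the 15 were chosen for small p-values in these same mice, which favours keeping their calls. The members whose calls a refit lost (Ttk, Anln and Kif20a) were not among them.

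For LJP against Vehicle, where edgeR called 0 members and 0 other cell cycle genes, the study's thresholds took 2 members and 9 other genes (6.97% of all genes), an adjusted p below 0.1 took 5 and 13 (14.9% of all genes), DESeq2 took 4 and 12, and no filter on low counts took 0 and 3. Leaving out 1 mouse gave 0 to 4 members and 0 to 16 other genes, and the log2 fold change of Ube2c ran from -0.85 to 0.066, the reversed sign being that without Vehicle mouse 2. The lowest adjusted p of a member was 0.0741 with all mice and 0.0197 in DESeq2.

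For LJP against Sham, where 20 members and 21 other genes were called, the study's thresholds took 31 and 40 (5.9% of all genes), an adjusted p below 0.1 took 30 and 37 (7.88% of all genes), DESeq2 took 34 and 46, only the 2 groups compared took 41 and 71, and Vehicle mice 3 and 4 only took 42 and 75. Leaving out 1 mouse gave 5 to 22 members and 4 to 22 other genes. The causes of these shifts were not tested.

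Replicate numbers did not pair the mice: the deviations of same-numbered mice correlated between -0.32 and 0.11, over 0.1 in 1 of 12 pairs. With the replicate block 43 members were called for Vehicle against Sham (Kif20a was lost), 0 for LJP against Vehicle, and 9 members and 6 other genes for LJP against Sham, with 34.8%, 0.0114% and 2.64% of all genes called.

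Members with few reads, such as Bub1 with 0 to 6 per Sham mouse, have the largest standard errors, up to 0.89 on the log2 scale.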
